A study of Mus musculus with 6 samples.

Results

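Cytochrome P450s, flavin-containing monooxygenases, carboxylesterases, sulfotransferases and UDP-glucuronosyltransferases are the enzymes that oxidise, hydrolyse and conjugate drugs, inhaled chemicals, steroids and fatty acids. They were followed in RNA of alveolar type II cells, which secrete lung surfactant. Genes were taken by symbol (Cyp, Ces, Ugt, Fmo or Sult followed by a digit, without Cyp51 and Cyp2f2). Each was represented by the brightest probe set that named it alone, and was kept where its mean log2 signal over 6 arrays was 8 or more. This gave 46 of 112 such genes, and 44 of the 46 lay among the 12952 genes tested. Signal level over all 6 arrays set the threshold, and Cyp51 and Cyp2f2 were left out by name although their levels lay above it. Cyp51 is the family gene that passed the test of genotype, as given below with the sterol P450s. Just inside the threshold lay Cyp2c70 and Cyp21a1 (mean log2 8.03 each), the 2 members that were too dim to be tested. Cyp2c70 signal was 289.8, 221 and 340.1 in deleted pools and 173, 222.5 and 382 in control pools. Just outside lay Cyp26a1 (7.96) and Cyp8b1 (7.94), with Cyp26a1 at 234, 450.3 and 247 in deleted pools and 418, 72.5 and 299.7 in control pools.

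The deleted group, labelled Insig1 ∆/∆ /Insig2 -/-, carried SpC-rTTA and Otet-CRE on an Insig1 flox/flox background. With doxycycline, the rtTA made under the surfactant protein C promoter turned on Otet-CRE. The floxed control group, labelled Insig1 flox/flox /Insig2 -/-, lacked either SpC-rtTA or Otet-CRE. Both groups lacked Insig2, were 2 months old, and per the labels had doxycycline between E6.5 and E12.5. Each genotype had 3 independent pools of RNA, 1 per array, and how many mice each pool drew on is unknown here. No group had the complete Cre system with Insig1 intact, so an effect of that system cannot be told apart from loss of Insig1. INSIG proteins hold back SREBP, the factor that drives sterol and fatty acid synthesis, and the comparison asks how type II cell RNA differs when Insig1 is lost on top of Insig2. Insig1 signal was 1252.5, 1442 and 1750.4 in deleted pools and 2300.1, 3325 and 2959.5 in control pools, a log2 fold change of -0.95 ± 0.18 (SE) with an adjusted p of 0.068 (limma), and Insig2 signal was 2107, 1904.5 and 1930.5 in deleted pools and 2626.5, 2277 and 1844 in control pools (log2 -0.17). The labels do not say whether the Insig1 probe set lies within the deleted exons, so its signal is a limited check of the deletion.

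P450s are haem enzymes of the endoplasmic reticulum and mitochondria that insert oxygen into fatty acids, sterols, retinoids and foreign chemicals. In the lung they are known best from club cells, whose P450s activate inhaled toxicants, and several are also made by type II, endothelial and myeloid cells. Carboxylesterases of the Ces1 group cleave esters in the endoplasmic reticulum lumen, drugs as well as triglyceride and retinyl esters. Sulfotransferases and UDP-glucuronosyltransferases attach sulfate or sugar to the products.

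The isolates held RNA of more than one cell type. The 11 tested type II markers summed to between 727980 and 862238 in deleted pools and to between 731426 and 855493 in control pools. Club cell markers summed to between 604796 and 824323 in deleted pools and to between 713704 and 963327 in control pools, with a median log2 fold change of -0.28, 2 of 12 lower at an unadjusted p under 0.05 and none past the adjusted threshold (limma). Ciliated cell markers summed to between 50954 and 66536 in deleted pools and to between 69959 and 109958 in control pools. Of the 12 genes tested in that list 2 were lower past the threshold, Ccdc153 and the transcription factor gene Sox2. Macrophage markers summed to between 327034 and 338460 in deleted pools and to between 235545 and 311181 in control pools, with 8 of 17 higher past the threshold. Over all genes tested 6.02% were lower at an unadjusted p under 0.05 (limma), and 0.625% were higher and 0.0232% lower past the adjusted threshold. No tested marker was at 0 in any pool, but genes were tested only where their mean signal passed a filter, which largely sets this in advance. In RNA from mixed cells, fewer cells of a type and less RNA per cell cannot be told apart. Control replicate 3 stood apart from the other 5 arrays on the first principal component and had the lowest array weight (0.437).

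Promoter windows were available for 36 of the 46 members (38 windows of RefSeq, GRCm38.p6, from 250 bases before to 50 after the start). The 6 windows shown belong to the neighbouring esterase genes Ces1e, Ces1g and Ces1h, which lay lower together, to Sult1d1 and Cyp2b10, which lay lower on every probe set tested, and to Cyp4v3, which lay higher on each of its probe sets. Capitals mark GCGTG, the core bound by the aryl hydrocarbon receptor, and TCACNCCAC, a form of the sterol regulatory element, on either strand. In Cyp2b10 the reverse of TCACNCCAC overlaps a GCGTG.
Ces1e (chr8:93229570-93229869, minus strand): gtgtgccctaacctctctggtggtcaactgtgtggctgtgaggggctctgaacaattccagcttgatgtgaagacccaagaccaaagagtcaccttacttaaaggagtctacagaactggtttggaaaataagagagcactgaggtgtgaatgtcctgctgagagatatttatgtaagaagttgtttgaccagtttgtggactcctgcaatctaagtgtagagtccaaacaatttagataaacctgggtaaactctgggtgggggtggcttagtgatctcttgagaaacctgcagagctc
Ces1g (chr8:93337160-93337459, minus strand): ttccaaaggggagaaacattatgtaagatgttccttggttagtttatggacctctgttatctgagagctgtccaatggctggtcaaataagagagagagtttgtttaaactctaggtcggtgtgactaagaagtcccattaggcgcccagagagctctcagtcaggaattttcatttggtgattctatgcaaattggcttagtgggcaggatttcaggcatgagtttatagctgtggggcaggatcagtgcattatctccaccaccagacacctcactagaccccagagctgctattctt
Ces1h (chr8:93379728-93380027, minus strand): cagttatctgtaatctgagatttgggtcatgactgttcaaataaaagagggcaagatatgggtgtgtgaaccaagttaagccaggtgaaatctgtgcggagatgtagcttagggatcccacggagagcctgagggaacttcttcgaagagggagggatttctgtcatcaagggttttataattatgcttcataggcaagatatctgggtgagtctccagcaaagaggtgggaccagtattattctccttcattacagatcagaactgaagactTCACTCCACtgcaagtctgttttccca
Sult1d1 (chr5:87568957-87569256, minus strand): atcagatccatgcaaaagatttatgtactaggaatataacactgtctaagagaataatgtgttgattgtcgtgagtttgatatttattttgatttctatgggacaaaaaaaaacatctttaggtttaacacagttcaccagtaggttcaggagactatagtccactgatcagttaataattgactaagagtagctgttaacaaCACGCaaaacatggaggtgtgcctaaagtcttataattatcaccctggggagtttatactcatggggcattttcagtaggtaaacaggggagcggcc
Cyp2b10 (chr7:25897408-25897707, plus strand): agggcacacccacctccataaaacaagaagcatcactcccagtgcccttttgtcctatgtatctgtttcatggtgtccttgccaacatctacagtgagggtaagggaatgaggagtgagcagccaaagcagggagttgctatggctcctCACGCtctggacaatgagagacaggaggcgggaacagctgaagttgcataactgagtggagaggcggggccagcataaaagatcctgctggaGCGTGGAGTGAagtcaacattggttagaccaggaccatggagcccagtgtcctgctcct
Cyp4v3 (chr8:45333114-45333413, minus strand): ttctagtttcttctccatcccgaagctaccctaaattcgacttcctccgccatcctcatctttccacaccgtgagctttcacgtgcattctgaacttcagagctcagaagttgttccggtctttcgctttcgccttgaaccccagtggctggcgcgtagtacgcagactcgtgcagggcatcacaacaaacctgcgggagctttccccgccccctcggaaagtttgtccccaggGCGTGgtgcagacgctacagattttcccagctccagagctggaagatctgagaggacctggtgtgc
GCGTG stood in 11 of the members' 38 windows (28.9%) and in 32.4% of all 32851 windows of that length. The nuclear receptor half-site AGGTCA stood in 6 of 38 (15.8%) and in 16.3% of all windows, and in none of the 6 shown. TCACNCCAC stood in 2 of 38 (5.26%), those of Ces1h and Cyp2b10, and in 1.24% of all windows. Between the windows of Ces1e, Ces1g and Ces1h identity ran from 46.3% to 51.8%, and between these 3 and the windows of Cyp2b10, Cyp2b9 and Cyp2b13 it ran from 45.9% to 50.2%. The windows of Cyp2b9 and Cyp2b13 were 99.3% identical.

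No member passed the adjusted threshold of 0.05 in either direction (limma, Benjamini-Hochberg over all 12952 genes), where 0.649% of all genes tested did, 0.625% higher and 0.0232% lower. The smallest adjusted p of a member was 0.19. The members nevertheless lay mostly on the lower side, with 32 of 44 (72.7%) at a log2 fold change below 0 against 50.9% of all genes tested. At an unadjusted p under 0.05, 8 members (18.2%) were lower, against 6.02% of all genes, and 2 (4.55%) were higher, against 6.05%. In 8 members all deleted pools lay below all control pools (18.2%, against 7.9% of all genes), and in 2 all deleted pools lay above (4.55%, against 9.2%). The median log2 fold change was -0.29 for the members and -0.0049 for all genes tested, with members ranging from -1.91 to 0.77. Members varied more within groups than other genes did. Their median SD on the log2 scale was 0.23 in deleted pools and 0.30 in control pools, where the medians of all genes were 0.15 in deleted pools and 0.23 in control pools.

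**Figure D1:**
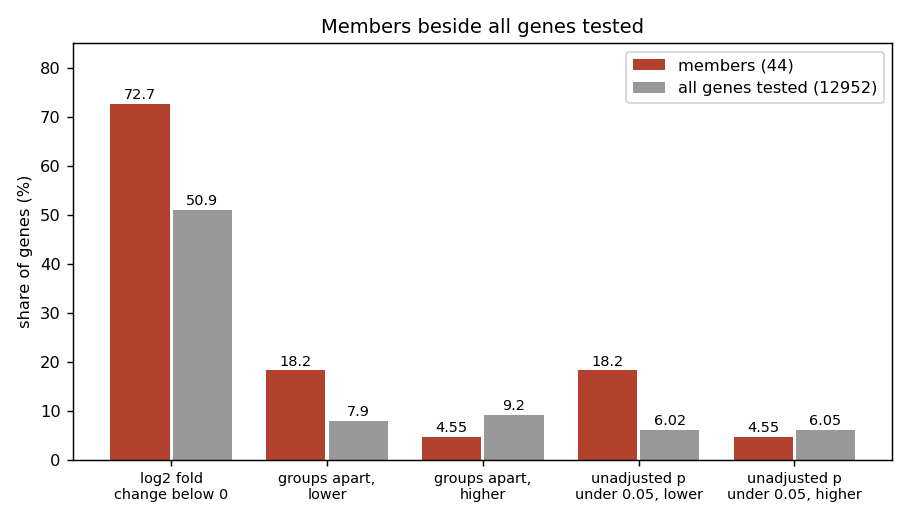
Share of genes (%) meeting each of 5 descriptions, for the 44 members tested (red) and all 12952 genes tested (grey). "Apart" means that the 3 deleted pools and the 3 control pools do not overlap. The members' share is above that of all genes for each of the 3 lower descriptions and below it for the 2 higher ones.

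The shift was carried unevenly by the pools. Deleted replicate 1 was the lowest of the 6 pools in 22 of 44 members, where it was lowest in 16.2% of all genes. Control replicate 3 was the highest in 22 of 44, where it was highest in 26.9% of all genes. These were also the pools with the lowest and the highest summed markers of 3 cell types. Club cell markers summed to 604796 in deleted replicate 1 and 963327 in control replicate 3, ciliated cell markers to 50954 in deleted replicate 1 and 109958 in control replicate 3, and mesenchymal cell markers to 49178 in deleted replicate 1 and 77265 in control replicate 3. The median log2 fold change was -0.28 for club, -0.59 for ciliated and -0.00031 for mesenchymal markers. Deleted replicate 1 also had the lowest type II marker sum of the 6 pools (727980, with 731426 in control replicate 3). Its sums of lymphocyte markers (21785) and neutrophil markers (7175) were the highest of the 6. The part of any of these cells in the shift was not tested. With both pools left out, an alternative chosen after the data were seen, 29 of 44 members still had a log2 fold change below 0 (65.9%, against 50.3% of all genes), the median was -0.11, and 6 were lower at an unadjusted p under 0.05 (13.6%, against 4.64%). The median was -0.18 without deleted replicate 1 alone and -0.18 without control replicate 3 alone, and 5 members (11.4%) were lower at an unadjusted p under 0.05 in each of these fits, against 4.64% of all genes without deleted replicate 1 and 4.69% without control replicate 3. Leaving out 1 pool moved the log2 fold change of 35 of the 44 members by over 1.5 times or turned its sign. The share of all genes so moved was not computed, so this count does not set the members apart.

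**Figure D2:**
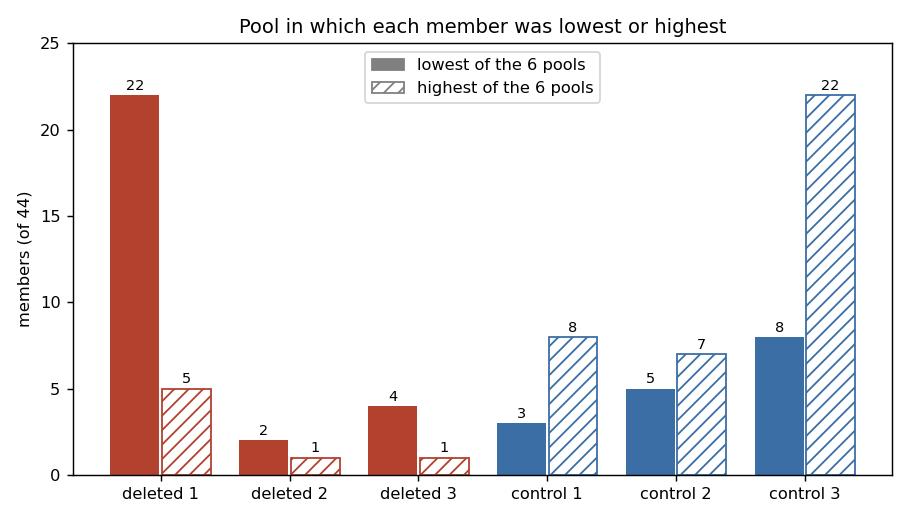
Number of the 44 tested members for which each pool held the lowest signal (filled bars) or the highest signal (hatched bars) of the 6, deleted pools in red and control pools in blue. Deleted replicate 1 is lowest for 22 members and control replicate 3 is highest for 22.

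All 5 tested Ces1 esterase genes lay lower in deleted pools, with log2 fold changes between -0.63 and -0.44, where 50.9% of all genes lay below 0. In 4 of the 5 the groups did not overlap, against 7.9% of all genes that were lower without overlap. Ces1d, known in mice as a triacylglycerol hydrolase that also cleaves retinyl esters, had signals of 37752.5, 39417 and 46729.5 in deleted pools and 53007, 57952 and 56347 in control pools. Every deleted pool was below every control, and the log2 fold change was -0.44 ± 0.12 (SE), a 1.36-fold difference, with an adjusted p of 0.19 (limma). Its other probe sets, on the same arrays, gave -0.32 and -0.96, each with groups that did not overlap. The probe set at -0.96 is of a type (_x_at) that can match several transcripts.

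Ces1e, known as egasyn for holding beta-glucuronidase in the endoplasmic reticulum, had signals of 741, 941 and 971 in deleted pools and 1433, 1100.0 and 1168.5 in control pools. Ces1f, a further triacylglycerol hydrolase, had 629, 851 and 977 in deleted pools and 1016, 1309 and 1458 in control pools. Neither overlapped between groups, and their log2 fold changes were -0.48 ± 0.18 and -0.63 ± 0.22 (SE), with adjusted p of 0.35 and 0.31 (limma). Ces1g, an esterase studied in mouse liver lipid metabolism, had 223, 372.5 and 307 in deleted pools and 420.5, 342 and 596.5 in control pools, and deleted replicate 2 lay above control replicate 2 (log2 -0.58 ± 0.32). Ces1h had 292, 405 and 337 in deleted pools and 464, 418 and 537 in control pools, with no overlap (log2 -0.46 ± 0.26, adjusted p 0.52). In the RefSeq gene order Ces1d, Ces1e, Ces1f, Ces1g and Ces1h follow each other on chromosome 8. They are close paralogs, and the Ces1f probe set is of a type (_s_at) that can match several transcripts, so probes for one may bind transcripts of another, and the 5 are not independent readings.

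The tested esterases outside the Ces1 group were Ces5a, Ces2g and Ces4a. Ces5a, the next gene after Ces1h, had signals of 1989.6, 131 and 1253 in deleted pools and 1903, 3002 and 3052 in control pools. Its log2 fold change of -1.91 ± 0.82 (SE), the lowest among the tested members, rested on the 130.9 of deleted replicate 2. Without that pool it was -0.72, and the groups overlapped. The probe set is of a type (_x_at) that can match several transcripts. The other Ces5a probe sets lay below the filter and differed in direction, with log2 differences of 1.10 and -1.06. Ces2g stood at -0.36 ± 0.30, and at -0.060 without deleted replicate 1, and Ces4a at 0.013 ± 0.24. In all 7 of 8 tested esterases had log2 fold changes below 0, where 50.9% of all genes did. The 5 other esterase genes lay below the level threshold.

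**Figure D3:**
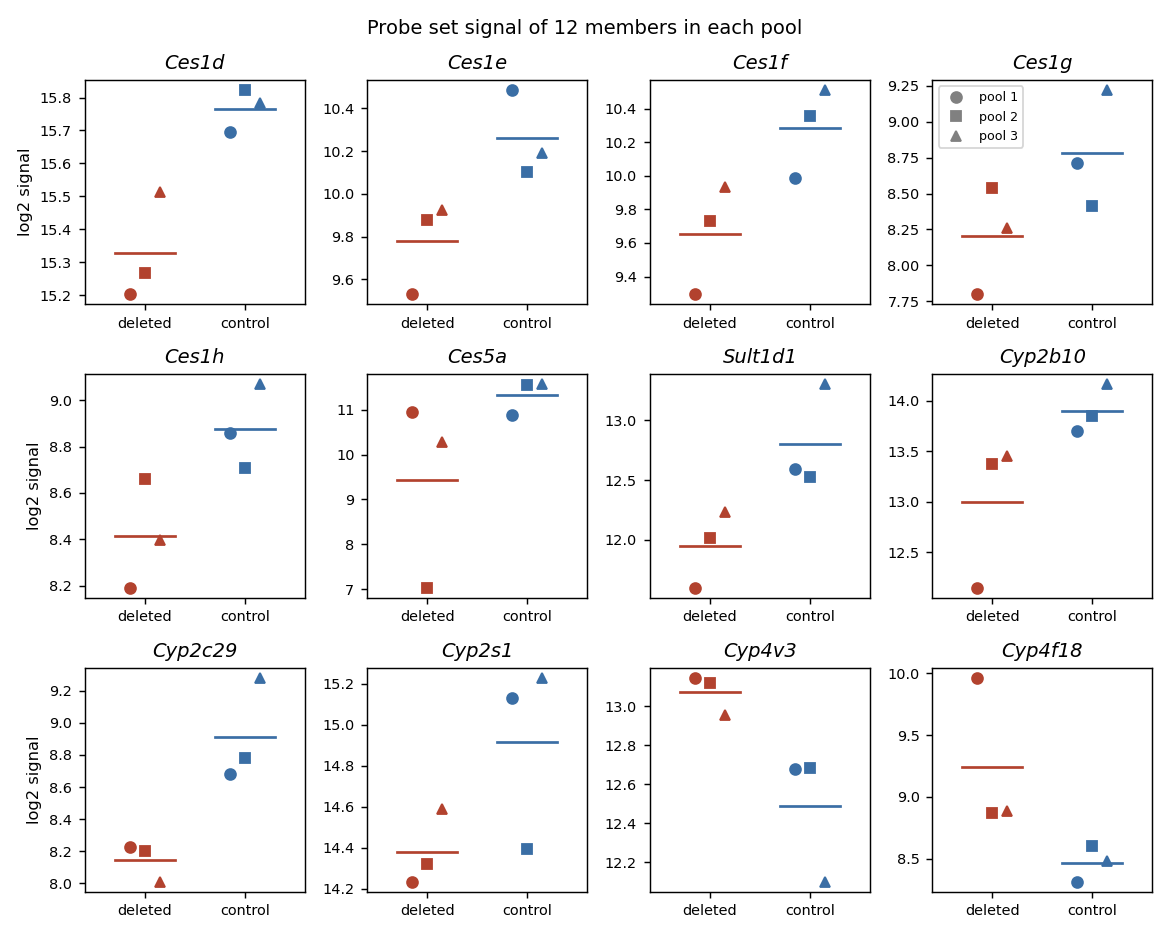
Log2 signal of 12 members in each pool, deleted pools in red on the left of each panel and control pools in blue on the right. Circles, squares and triangles are pools 1, 2 and 3, and lines are group means. The groups do not overlap for Ces1d, Ces1e, Ces1f, Ces1h, Sult1d1, Cyp2b10, Cyp2c29, Cyp4v3 and Cyp4f18, and they overlap for Ces1g, Ces5a and Cyp2s1.

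The CYP2 family, the largest group of xenobiotic P450s, had 13 members of 33 family genes. Of the 12 tested, 9 had log2 fold changes below 0, where 50.9% of all genes did. Cyp2b10, a phenobarbital-inducible P450 and target of the nuclear receptor CAR, had signals of 4547, 10644 and 11238 in deleted pools and 13267, 14725 and 18361 in control pools. Deleted replicate 1 was far below all other pools, yet the other 2 deleted pools also lay below every control. The log2 fold change was -0.91 ± 0.31 (SE), with an adjusted p of 0.30 (limma), and -0.49 without deleted replicate 1. Its other probe sets gave -0.81 and -0.99, again with no overlap. The main probe set and the one at -0.81 are of the _s_at type, so they may also bind transcripts of related genes.

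Cyp2s1, known from airway epithelium and inducible through the aryl hydrocarbon receptor, had signals of 19277, 20444 and 24632 in deleted pools and 35811, 21527 and 38342 in control pools. Control replicate 2 lay within the range of the deleted pools. The log2 fold change was -0.54 ± 0.21 with an adjusted p of 0.36 (limma), and -0.80 with an adjusted p of 0.018 without control replicate 2, a fit in which 293 genes were called lower. Cyp2s1, Cyp2b10, Cyp2b13 and Cyp2b9 are neighbours on chromosome 7. Cyp2b13 stood at 0.061 ± 0.36 and Cyp2b9 at -0.38 ± 0.30, and differences between these genes were not tested. Cyp2b13 and Cyp2b9 were dim, with mean log2 signals of 8.09 and 8.67 where the filter lay at 8.08.

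Cyp2c29, which makes epoxides of arachidonic acid in mice, had signals of 299.9, 295 and 258 in deleted pools and 411, 439 and 621 in control pools. The groups did not overlap (log2 -0.77 ± 0.28, adjusted p 0.32, limma). Cyp2d13 was also lower without overlap, at 650.1, 615 and 511.5 in deleted pools and 694, 804.5 and 804 in control pools (log2 -0.38 ± 0.20). Both probe sets were dim, with mean log2 signals of 8.53 for Cyp2c29 and 9.39 for Cyp2d13 where the filter lay at 8.08. The remaining tested CYP2 members overlapped between groups, among them the ethanol-oxidising Cyp2e1 (0.0099 ± 0.30), Cyp2j6 (0.0086 ± 0.26), Cyp2d22 (-0.33 ± 0.23, and -0.083 without control replicate 3), Cyp2c38 (-0.0064 ± 0.43), Cyp2c23 (-0.27 ± 0.33) and Cyp2a12 (-0.022 ± 0.23). Cyp2f2, the club cell P450 left out by name, had 104925 ± 11827 in deleted pools and 118927 ± 18988.5 in control pools (SD over 3 pools, log2 -0.17).

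CYP4 enzymes oxidise the ends of fatty acids and eicosanoids, and the 2 members that were higher without overlap belonged to this family. Cyp4v3, the mouse counterpart of the human fatty acid hydroxylase CYP4V2, had signals of 9062, 8914 and 7947 in deleted pools and 6566, 6589 and 4395 in control pools. Every deleted pool was above every control, and the log2 fold change was 0.59 ± 0.17 (SE), a 1.5-fold difference, with an adjusted p of 0.22 (limma). A second probe set gave 0.63, and the value without control replicate 3, the lowest pool, was 0.39. Cyp4f18, a mouse P450 of myeloid cells that oxidises leukotriene B4, had 997, 468 and 473 in deleted pools and 319, 389.5 and 358 in control pools. Its log2 fold change was 0.77 ± 0.33 (adjusted p 0.40, limma) and 0.41 without deleted replicate 1, the highest pool. The neutrophil genes S100a8 and S100a9 lay higher in the same pools, with S100a8 at 4072, 3059 and 2949.9 in deleted pools and 1887, 1072 and 2225 in control pools, and macrophage markers had a median log2 fold change of 0.90. Of the other neutrophil markers Csf3r, Cxcr2 and Mmp8 lay below the filter, and the part of myeloid cells was not tested.

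Cyp4b1, a lung P450 that activates inhaled toxicants, overlapped between groups, with 23585, 30175.5 and 30108 in deleted pools and 32037, 28846 and 42013 in control pools. Its log2 fold change was -0.29 ± 0.16 and -0.13 without control replicate 3, the highest pool. The 4 tested Cyp4f genes besides Cyp4f18 ranged from -0.61 for Cyp4f39, a skin lipid hydroxylase, to 0.0078 for Cyp4f16, with -0.31 for Cyp4f13 and -0.29 for Cyp4f15, and all overlapped. Leaving out 1 pool moved Cyp4f13 to -0.89 without control replicate 3 and to 0.11 without control replicate 2, and Cyp4f15 to -0.049 without deleted replicate 1.

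The remaining P450s showed no separation of the groups. Cyp1a1, the classic target of the aryl hydrocarbon receptor, had 934, 2201 and 1969.5 in deleted pools and 2315, 1447 and 2905 in control pools. Its log2 fold change was -0.42 ± 0.34 and was -0.036 without deleted replicate 1. Cyp1b1, a further target of that receptor, stood at -0.30 ± 0.22. The sterol P450s, which make and degrade oxysterols and bile acids, all overlapped. They were Cyp27a1, the sterol 27-hydroxylase (-0.37 ± 0.24), Cyp39a1 (-0.068 ± 0.18) and Cyp7b1 (-0.18 ± 0.29), both oxysterol hydroxylases, and Cyp7a1, the first enzyme of bile acid synthesis in liver (-0.084 ± 0.32). Cyp51, the sterol demethylase of cholesterol synthesis that was left out by name, was higher at 1.61 ± 0.21 (adjusted p 0.011, limma). Cyp26b1, which degrades retinoic acid, spanned 370.7 to 1032 in deleted pools and 158.0 to 813 in control pools (log2 0.52 ± 0.59), and was -0.11 without control replicate 3. Cyp20a1 (0.043 ± 0.16) and Cyp3a13 (-0.083 ± 0.22) lay near 0.

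**Figure D4:**
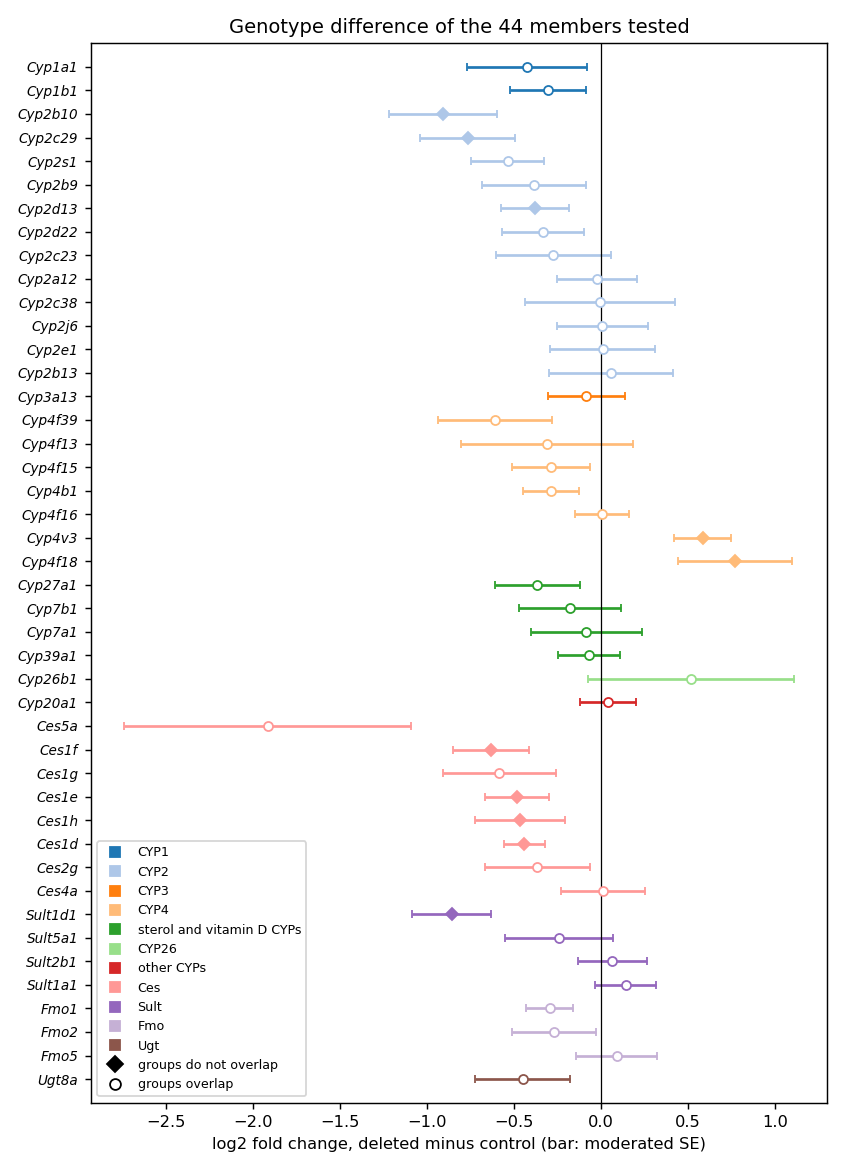
Log2 fold change, deleted minus control, of the 44 members tested, grouped and coloured by family, with bars for the moderated SE. Filled diamonds are members whose groups do not overlap (8 lower, 2 higher), and open circles are the others.

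Flavin-containing monooxygenases, which oxidise nitrogen and sulfur in drugs, overlapped between groups on the brightest probe set of each. Fmo1 had 4952, 5023 and 5542 in deleted pools and 6310.0, 5451 and 7394 in control pools (log2 -0.29 ± 0.13). Fmo2, the main lung form in many mammals and the neighbour of Fmo1 on chromosome 1, had 4206.5, 7451 and 7567 in deleted pools and 6740.3, 6381 and 9667 in control pools (log2 -0.27 ± 0.24). The value for Fmo2 was 0.0087 without deleted replicate 1. Its other probe sets past the filter gave -0.40, -0.47 and -0.46, and their groups overlapped as well. Fmo5 stood at 0.091 ± 0.23. Its other probe sets past the filter gave -0.14, lower without overlap, and -0.080, with overlap.

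Among the conjugating enzymes Sult1d1, a catechol and dopamine sulfotransferase of mice, gave the smallest p of all members. It had signals of 3105, 4137.5 and 4812 in deleted pools and 6173, 5884 and 10118 in control pools. The groups did not overlap, and control replicate 3 was far above the other controls. The log2 fold change was -0.86 ± 0.23 (SE), a 1.81-fold difference, with an adjusted p of 0.19 (limma), and -0.61 without control replicate 3. With the pool number as a block its adjusted p was 0.029. A second probe set had 937, 1115.5 and 1005 in deleted pools and 1579, 1405 and 2413 in control pools (log2 -0.78). The phenol sulfotransferase gene Sult1a1 (0.14 ± 0.17), Sult2b1, whose product sulfates cholesterol and other sterols (0.065 ± 0.20), and Sult5a1 (-0.24 ± 0.31) overlapped between groups. Ugt8a, which makes galactosylceramide and was the 1 member of 11 named Ugt genes, stood at -0.45 ± 0.27 and overlapped.

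Probe sets of one gene could be compared for the 10 members with 2 or more past the filter. All probe sets of a gene had the same sign in 8 of them, and both signs occurred in 2, Cyp2j6 and Fmo5. Such probe sets share the RNA and the array, so they check the probe and not the pools.

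**Figure D5:**
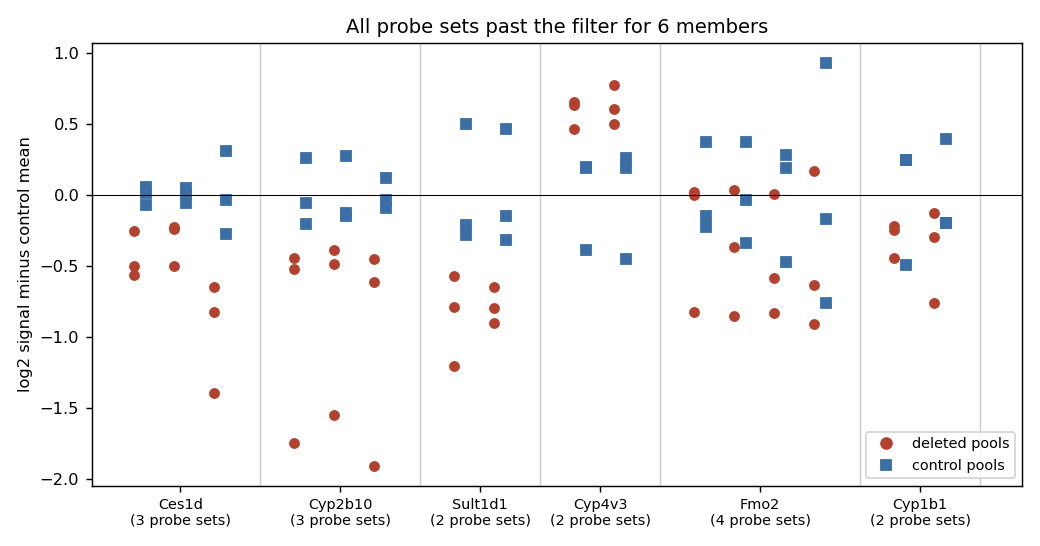
Log2 signal minus the control mean for every probe set past the filter of 6 members, deleted pools as red circles and control pools as blue squares. The groups do not overlap on all 3 probe sets of Ces1d, all 3 of Cyp2b10, both of Sult1d1 and both of Cyp4v3, while they overlap on the probe sets of Fmo2 and Cyp1b1.

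Partners of these enzymes came from 4 lists of pathway genes, and none of their members passed the adjusted threshold (limma). Of 5 tested electron carriers and membrane partners of P450s, 1 was higher and 2 were lower at an unadjusted p under 0.05 (limma). Over all genes tested 6.05% were higher and 6.02% lower at that level. The list median log2 fold change was -0.22. Cyb5b, the outer mitochondrial cytochrome b5, had 19521, 20816 and 19384 in deleted pools and 15916, 17321 and 11920.0 in control pools (log2 0.42 ± 0.14). Pgrmc1, a haem protein that binds P450s, had 24982, 28875 and 28342 in deleted pools and 34715, 29500.0 and 46097 in control pools (-0.40 ± 0.16). Cyb5a, the cytochrome b5 of the endoplasmic reticulum, had 35363.5, 45945 and 50245 in deleted pools and 50734.5, 52958 and 63322 in control pools (-0.35 ± 0.15). None of these 3 overlapped between groups. Over all genes tested the deleted pools all lay above the controls in 9.2% and all below in 7.9%.

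Of 10 tested xenobiotic receptors and regulators none had an unadjusted p under 0.05, and their median was 0.018, with Ahr, the aryl hydrocarbon receptor, at -0.27 ± 0.17 and Ppara at 0.22 ± 0.17. Ahrr, Nr1i2, Nr1i3 and Nr1h4 lay below the filter. Of 7 tested genes for conjugation donors and deconjugation the list median was -0.13. At an unadjusted p under 0.05 (limma) 1 was lower, against 6.02% of all genes. It was Slc35d1, which carries UDP-sugars into the endoplasmic reticulum, with 1376, 1365 and 1409 in deleted pools and 2016, 1675 and 2246 in control pools (-0.51 ± 0.15). Gusb, the beta-glucuronidase that egasyn retains, lay higher at 3911, 3412 and 3207 in deleted pools and 3047, 3002 and 2429 in control pools (0.32 ± 0.14). Of 24 tested other enzymes of oxidation and conjugation 1 was higher and 2 were lower at an unadjusted p under 0.05 (limma). Over all genes 6.05% were higher and 6.02% lower, and the list median was -0.16. Thromboxane synthase, a P450 encoded by Tbxas1 and abundant in myeloid cells, had 768, 693 and 849.5 in deleted pools and 285, 269 and 532 in control pools (1.16 ± 0.30, adjusted p 0.18). The epoxide hydrolase gene Ephx1 had 7509.9, 9837.5 and 9536 in deleted pools and 12338, 10859.9 and 12285 in control pools (-0.41 ± 0.13), and Pon1, a lactonase and esterase, had 22398, 21725 and 23018 in deleted pools and 37379, 24236 and 46719 in control pools (-0.64 ± 0.21).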

How the data were processed

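RNA of isolated alveolar type II cells was hybridised to 6 Affymetrix arrays, 3 pools per genotype. The authors deposited 1 linear signal intensity per probe set and array, made with MAS5 per the submitters' processing notes. Signals under 1 were set to 1, log2 was taken, and no further normalization was applied. The median signal of an array ran from 426.4 to 478.8, and was highest in control replicates 2 and 3. Probe sets below the 40th percentile of mean log2 signal (8.08) were left out, the brightest probe set naming a gene alone stood for it, and 12952 genes were fitted by lmFit and by eBayes with its trend option (limma 3.58.1, R 4.3.3). P-values were two-sided and were adjusted by Benjamini and Hochberg's method over all of these genes. P-values measure the spread between 3 pools a genotype, and the number of arrays limits the precision. Log2 fold changes are deleted minus control with moderated SE. The steps were tested on simulated data. Gene names came from the platform annotation, promoters from RefSeq, and figures from matplotlib 3.10.9. Members and lists were chosen with earlier results of these data known. Genes named were Insig1 and Insig2, the 12 higher and 12 lower members of smallest p, those at the level threshold, 1 or more of each family, Cyp51, Cyp2f2 and the 2 partner genes of smallest p per list, and other members and markers were added after their values were seen. Alternatives were other scalings, filters, weights and thresholds, the pool number as a block, and each pool left out.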

Additional observations from a re-analysis of the deposited data

How the results depend on the processing

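No member was called in any alternative except Sult1d1 with the replicate block (1 lower) and Cyp2s1 without control replicate 2, so that leaving out a pool gave 0 to 1 lower and 0 higher. The sign held in every alternative for 23 of 44 members, 20 of the 32 below 0 and 3 of the 12 above 0, which for members whose groups do not overlap follows from that separation when pools are left out. The share of all genes that kept their sign was not computed. The labels do not say that pool numbers pair the samples. Deviations of same-numbered pools from their group means correlated at 0.07, 0.04 and 0.15. With 3 pools a group these values cannot decide whether the pools are paired. The replicate block gave 111 genes higher and 21 lower, against 81 and 3 without it. Leaving out 1 pool gave 15 to 184 genes higher and 0 to 293 lower, no intensity trend 29 and 0, array weights 186 and 73, a threshold of 0.01 26 and 0, a threshold of 0.1 11 lower, and the fit without both deleted replicate 1 and control replicate 3 6 lower. Among partner genes 1 (Tbxas1) was higher with array weights, and leaving out a pool gave 0 to 1 in each direction. Without those 2 pools the members' median was -0.11, and it lay between -0.34 and -0.18 with 1 pool left out. With the filter at the 60th percentile 22 members remained, 16 of them below 0 (72.7%, against 48.7% of all genes). With quantile normalization 29 of 44 lay below 0 (65.9%, against 48.7% of all genes), and with a shift to a common median also 29 (against 37.6%). Members lower at an unadjusted p under 0.05 (limma) numbered 7 (15.9%, against 5.62%) with quantile normalization and 6 (13.6%, against 3.13%) with the shift. Members higher at an unadjusted p under 0.05 numbered 1 with array weights (against 8.21% of all genes), no filter (4.78%), the filter at the 60th percentile (6.81%) or without both pools (6.27%), and 1 to 2 with 1 pool left out (4.05% to 7.84%). Members lower numbered 5 to 11 with 1 pool left out (3.4% to 9.85% of all genes), the 11 (25% of members) and the 9.85% both without control replicate 2. The sign turned with array weights for Cyp26b1 (-0.13), Fmo5 (-0.072), Sult2b1 (-0.10), Cyp4f16 (-0.010) and Cyp2j6 (-0.12), and with the mean over probe sets for Fmo5 (-0.045) and Cyp2j6 (-0.073). It also turned where pools were left out, singly or both of those 2 together, with ranges of -0.57 to 1.08 for Cyp26b1, -0.066 to 0.29 for Fmo5, -0.12 to 0.23 for Sult2b1, -0.10 to 0.16 for Cyp20a1, -0.21 to 0.21 for Cyp2b13, -0.13 to 0.13 for Ces4a, -0.050 to 0.048 for Cyp4f16, -0.17 to 0.19 for Cyp2j6, -0.18 to 0.19 for Cyp2e1, -0.34 to 0.096 for Cyp3a13 and -0.31 to 0.020 for Cyp2f2. Of the members below 0, the sign also turned in at least 1 alternative for Cyp3a13 and for 11 more, whose ranges over all alternatives were -0.56 to 0.44 for Cyp2c38, -1.12 to 0.11 for Cyp4f13, -0.42 to 0.20 for Sult5a1, -0.41 to 0.20 for Fmo2, -0.70 to 0.19 for Cyp1a1, -0.24 to 0.15 for Cyp7a1, -0.43 to 0.090 for Cyp4f15, -0.57 to 0.088 for Ces2g, -0.094 to 0.073 for Cyp2a12, -0.36 to 0.023 for Cyp39a1 and -0.43 to 0.00077 for Cyp2c23. The cause was not tested.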

Other observations

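Probe sets of the same families that name several genes were left out of the members, and 5 of the 9 such probe sets passed the filter. In a limma fit over all 27022 probe sets past the filter none of the 5 was called, and none had an unadjusted p under 0.05. The 3 that name the 8 genes of the Ugt1a locus, which make glucuronosyltransferases from a shared 3' end, had log2 fold changes of -0.087 ± 0.12, -0.078 ± 0.13 and -0.049 ± 0.13 (SE), with signals of 19588, 23425 and 23317 in deleted pools and 25264, 20398 and 24398 in control pools on one of them. The probe set shared by Cyp2a5 and Cyp2a4, P450s that oxidise nicotine and coumarin or steroids, had 6981, 7862 and 10255 in deleted pools and 9339.8, 6418 and 18725 in control pools, a log2 fold change of -0.33 ± 0.33, and control replicate 3 was its highest pool. The probe set shared by Cyp4f37 and Cyp4f16 stood at 0.11 ± 0.17.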
